A study of Mus musculus with 8 samples.

Results

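The comparison is between hearts of mice that went through ischemia-reperfusion (IR, a blocked and then reopened coronary flow) and received either the nanocage iFTn-MR4 or phosphate-buffered saline (PBS). It takes 4 of the 8 libraries of the study, 2 with iFTn-MR4 and 2 with PBS. The other 4 come from IR hearts that received the nanocages iFTn-M4 or iFTn-R4. All groups share the IR injury, and uninjured hearts were not analysed here. Each nanocage was given in 2 doses of 2.5 mg/kg protein on alternate days, and PBS was also given in 2 doses. RNA of the injured cardiac tissue was taken after 3 days. The series title describes engineered protein nanocages that act as nanozymes, that is enzyme-like catalysts, against intracellular superoxide. Strain, sex and age of the mice, and what the letters M and R stand for, are not given in the sources used here.

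The libraries were matched on gene ID, and 16547 genes had values in both deposited tables, of which 13953 were expressed highly enough to be tested and 2594 were not. PBS is in a table of its own and iFTn-MR4 in that of the nanocages, so that group and table cannot be told apart in any difference against PBS. No label states that replicate libraries were made from different mice, so p-values measure the spread between these samples, which may be technical. In whole tissue, fewer cells of a type and less RNA per cell cannot be told apart.

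After reperfusion, dying cardiomyocytes set off an inflammatory response in which neutrophils and then monocytes enter the tissue, interferon-stimulated genes are switched on and fibroblasts begin to lay down scar. Stretched surviving cardiomyocytes make natriuretic peptides and lower their oxidative metabolism. Superoxide dismutases turn superoxide into hydrogen peroxide, which catalase, glutathione peroxidases and peroxiredoxins remove.

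Depth was similar in the 4 libraries. The PBS libraries held 15729385 and 15478158 expected counts and the iFTn-MR4 libraries 13618588 and 13884035. All were rich in heart RNA, and the alpha myosin heavy chain gene Myh6 took 1.38 to 1.55% of counts with PBS and 2.67 to 2.82% with iFTn-MR4. The first principal component over all 8 libraries held 57.7% of the variance. On it the PBS libraries lay at -46.3 and -44.2 and the iFTn-MR4 libraries at 37.4 and 35.2, at opposite ends of the 8.

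Fold changes against PBS followed transcript length. The median log2 fold change (iFTn-MR4 minus PBS) was -0.26 in the shortest and 0.32 in the longest of 5 equal groups of genes ordered by transcript length, with a Spearman correlation of 0.353 across 13953 genes, which are not independent replicates. The same correlation was 0.331 to 0.370 in the 4 pairs of 1 iFTn-MR4 and 1 PBS library. It was 0.06 against the other nanocages, -0.058 between the PBS libraries and 0.007 between the iFTn-MR4 libraries. The effective lengths behind the deposited values were also longer in the nanocage table. The median difference was 0.0353 (log2) for the shortest and 0.006 for the longest of 5 groups, cut over all matched genes with an effective length, tested or not. The part of these length differences in the trend was not tested. A second fit therefore carried a smooth function of length for each library, which left a correlation of -0.017. A gene is said to have risen or fallen only where edgeR's quasi-likelihood test gave a Benjamini-Hochberg adjusted p under 0.05 and the same direction in both fits. Unless stated otherwise, log2 fold changes, standard errors (SE) and adjusted p-values are those of the fit on the counts as deposited, and levels are CPM, that is counts scaled to a common library size, which compare libraries but not genes.

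**Figure D1:**
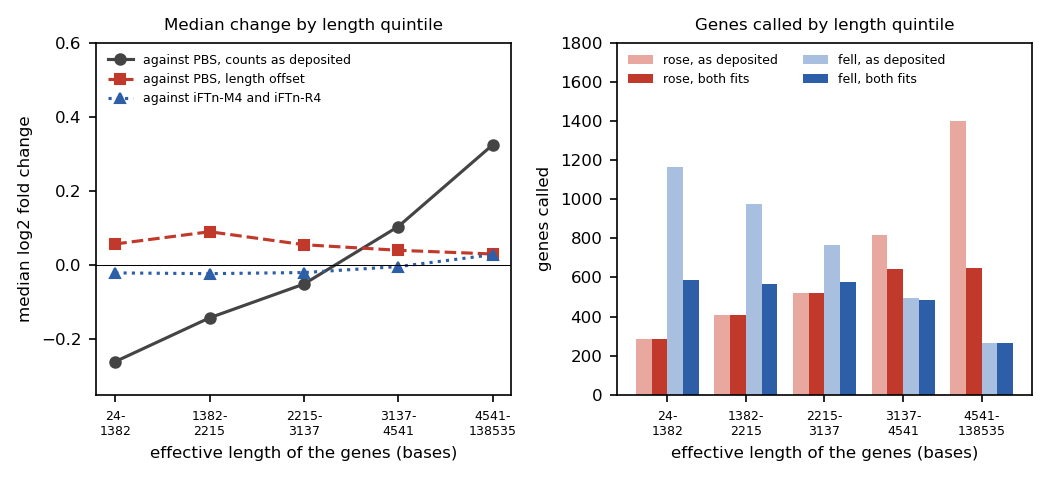
Left, median log2 fold change of iFTn-MR4 for 5 groups of tested genes of equal number ordered by effective transcript length in bases, against PBS on the counts as deposited (circles), against PBS with the length offset (squares) and against iFTn-M4 and iFTn-R4 (triangles). Right, number of genes called in each group, from the counts as deposited alone (pale) and in both fits (dark). The circles climb from -0.26 to 0.32, and the squares stay between 0.03 and 0.09.

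By this rule 2506 genes rose, 18% of those tested, and 2485 fell, 17.8%, together 35.8%. The counts of gene list members below are to be read beside these shares of 18% and 17.8%. On the counts as deposited alone 24.6% rose and 26.3% fell, and with the length offset alone 24.5% and 20.7%. The requirement that both fits pass took most from the extremes of length. Among the shortest genes those that fell went from 1166 to 587, and among the longest those that rose went from 1398 to 646. The falls were larger than the rises. At least 2-fold, 949 genes fell and 576 rose, and at least 4-fold, 234 fell and 63 rose. The median over all tested genes was 0.00. Leaving out 1 library changed these numbers by more than 1.5 times. Genes that rose numbered 1519 without PBS replicate 1, 1616 without iFTn-MR4 replicate 1 and 1669 without iFTn-MR4 replicate 2. Genes that fell numbered 1588 and 1651 without iFTn-MR4 replicates 1 and 2.

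**Figure D2:**
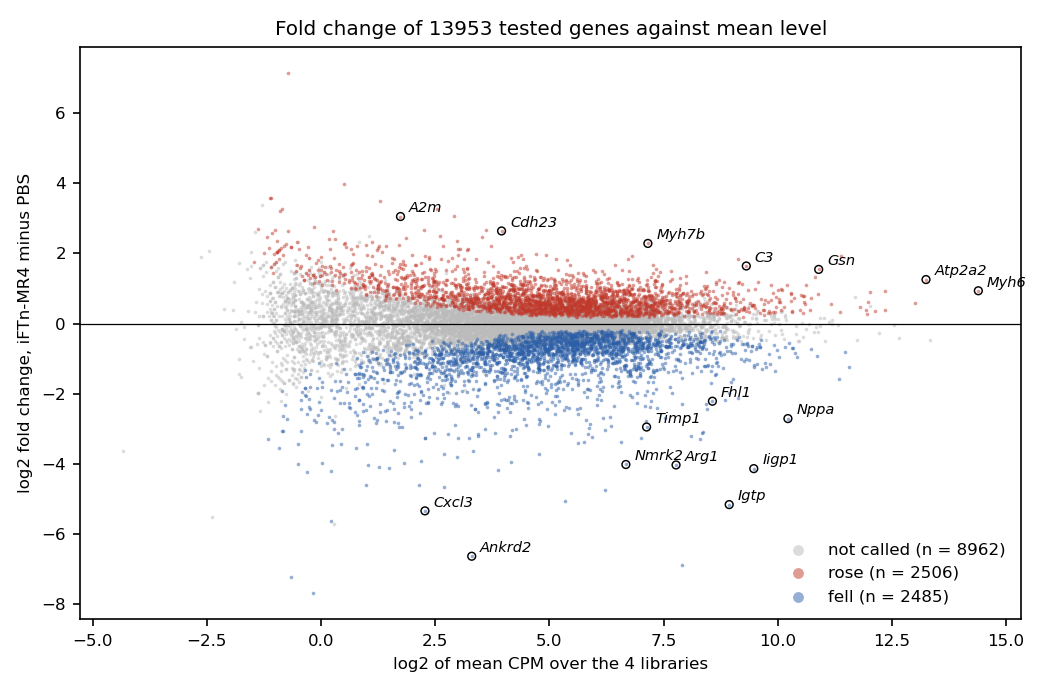
Log2 fold change of iFTn-MR4 minus PBS (vertical) against the log2 of the mean CPM over the 4 libraries (horizontal) for each tested gene. Genes that rose are red (2506) and genes that fell are blue (2485), and circled genes are named. The falls reach further from 0 than the rises at high levels, as for Igtp and Iigp1.

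Among the steepest falls were genes known from stretched muscle and from low oxygen. Ankrd2, a stretch-responsive ankyrin repeat protein of striated muscle, stood at 14.5 and 24.5 CPM with PBS and at 0.151 and 0.223 CPM with iFTn-MR4. The iFTn-MR4 values rest on 5 counts, and the ratio of PBS to iFTn-MR4 was 103 with a 95% counting interval of 44.1 to 320. Nmrk2, a nicotinamide riboside kinase of muscle, stood at 234 and 151 CPM against 9.60 and 14.1 CPM, and fell 16.2-fold (log2 fold change -4.02, SE 0.30). Both groups were apart in both genes. Car9, a carbonic anhydrase induced by low oxygen, stood at 15.1 and 9.91 CPM with PBS and at 0.454 and 0.520 CPM with iFTn-MR4, a log2 fold change of -4.66 (SE 0.42). Fosl1, a subunit of the AP-1 transcription factor, went from 8.28 and 8.66 CPM to 0.227 and 0.445 CPM, a ratio of 25.1 (counting interval 13 to 55.5).

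Among the other large falls were 4 enzymes and receptors of immune cells, some of which varied between libraries. Arg1, arginase of wound macrophages, was at 569 and 256 CPM with PBS and at 34.6 and 15.8 CPM with iFTn-MR4. Its libraries differed by about as much within each group, but the groups did not overlap, and its log2 fold change of -4.03 (SE 0.62) was -3.35 without PBS replicate 1 and -4.70 without iFTn-MR4 replicate 1. Acod1, which makes itaconate in macrophages, was at 21.04 and 8.26 CPM against 1.74 and 0.371 CPM, a log2 fold change of -3.80. It was -2.97 without PBS replicate 1, -5.27 without iFTn-MR4 replicate 1 and -3.07 without iFTn-MR4 replicate 2. Tnfrsf9, a costimulatory receptor of lymphocytes, went from 6.45 and 4.23 CPM to 0.454 and 0.148 CPM, a ratio of 17.9 (counting interval 8.87 to 42.1), and its log2 fold change of -4.12 was -5.09 without iFTn-MR4 replicate 1 and -3.53 without iFTn-MR4 replicate 2. Ido1, a tryptophan-degrading enzyme induced by interferon gamma, went from 7.52 and 5.82 CPM to 0.454 and 0.371 CPM (log2 fold change -3.99, SE 0.52). On log2(TPM + 1), which understates the change of low genes, the falls of Acod1, Tnfrsf9 and Ido1 were -2.46, -2.03 and -2.54.

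The largest rises were smaller. Cdh23, a cadherin best known from the tip links of hair cells, stood at 3.85 and 4.69 CPM with PBS and at 28.4 and 24.9 CPM with iFTn-MR4. It rose 6.24-fold (log2 fold change 2.64, SE 0.16), and the groups were well apart. Myh7b, a slow-type myosin heavy chain, stood at 43.2 and 54.0 CPM against 235 and 238 CPM and rose 4.88-fold (log2 fold change 2.29, SE 0.10). Channel genes were among them. Clcn1, the chloride channel of skeletal muscle, rose from 3.67 and 3.31 CPM to 22.8 and 16.3 CPM, and Cacna1s, its voltage-sensing calcium channel, from 4.11 and 5.29 CPM to 24.1 and 19.5 CPM. Kcnv2, a modifier subunit of potassium channels, rose from 2.78 and 2.38 CPM to 15.6 and 10.8 CPM, and Cngb3, a cyclic nucleotide-gated channel subunit of cone cells, from 1.01 and 1.59 CPM to 10.6 and 5.94 CPM. All 4 groups of iFTn-MR4 values lay above those of PBS.

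Other large rises were of A2m, a protease inhibitor of plasma, Akap5, an anchor of protein kinase A, Lgi1, a secreted protein of neurons, and Gpr34, a receptor of macrophages. A2m stood at 0.821 and 0.595 CPM with PBS and at 6.95 and 4.97 CPM with iFTn-MR4 (log2 fold change 3.05, SE 0.36). Akap5 stood at 1.201 and 2.51 CPM against 8.24 and 12.6 CPM, a log2 fold change of 2.49 that was 3.10 without PBS replicate 2. Lgi1 and Gpr34 had log2 fold changes of 2.44 (SE 0.28) and 2.21 (SE 0.30). Col24a1, a minor fibrillar collagen, rose by 2.25 (SE 0.54), and leaving out any 1 of the 4 libraries ended its call (2.34 and 2.16 without PBS replicates 1 and 2, 2.18 and 2.33 without iFTn-MR4 replicates 1 and 2). On log2(TPM + 1) the changes of A2m, Cngb3, Cdh23, Akap5, Lgi1, Kcnv2 and Col24a1 were 1.31, 1.42, 1.60, 1.29, 1.25, 1.71 and 0.87. On the same scale Ankrd2, Cxcl3, Car9 and Fosl1 were at -4.63, -3.68, -2.91 and -2.77. Outside the naming rule, and named after its values were seen, the predicted gene Gm4841 stood at 444.8 and 508.0 CPM with PBS and at 4.46 and 3.56 CPM with iFTn-MR4 (log2 fold change -6.89, SE 0.15).

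Interferon-stimulated genes were lower throughout. Of 28 tested members of the interferon response list all 28 fell, with log2 fold changes from -2.98 to -1.01 and a median of -1.86, where 17.8% of all tested genes fell. Irf7, the transcription factor that amplifies type I interferon, stood at 344 and 447 CPM with PBS and at 82.8 and 77.4 CPM with iFTn-MR4. Zbp1, a sensor of nucleic acids, stood at 96.7 and 110 CPM against 14.4 and 11.95 CPM. Both PBS libraries were 4 or more times as high as either iFTn-MR4 library in Irf7, and more so in Zbp1, with log2 fold changes of -2.30 (SE 0.14) and -2.98 (SE 0.19). Bst2, the membrane tether that holds budding viruses, went from 190 and 210 CPM to 40.7 and 42.5 CPM, a log2 fold change of -2.27 (SE 0.11, edgeR adjusted p = 2.14e-06).

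The guanylate-binding proteins and immunity-related GTPases, which attack the vacuoles of intracellular microbes and are induced by interferon gamma, fell furthest of the lists examined. All 16 tested members fell, with a median of -2.74. Igtp stood at 868 and 1040 CPM with PBS and at 28.7 and 24.5 CPM with iFTn-MR4, which is 35.9-fold lower (log2 fold change -5.16, SE 0.16, edgeR adjusted p = 1.82e-07). Iigp1 stood at 1321 and 1375 CPM against 75.1 and 78.0 CPM, 17.6-fold lower. Irgm1 stood at 454 and 529 CPM against 54.9 and 52.5 CPM, and Irgm2 at 576 and 597 CPM against 72.7 and 65.0 CPM. In each of the 4 genes the libraries of a group were close together and the groups far apart. Many of these genes are near-identical copies, and when genes with split counts in any of the 8 libraries were left out 6 members remained and fell. Igtp and Irgm2 had split counts in 1 of the 4 libraries, which makes their levels uncertain.

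The promoters of 3 of these genes are shown because both lists share a short sequence there. The interferon-stimulated response element has the core GAAANNGAAA, searched on both strands, where overlapping matches were all kept. It was present within the 300 bases around the start of 435 of 11090 tested genes with a RefSeq promoter, 3.92%. It was present in 13 of 21 such genes of the interferon response list, in 10 of 10 of the GTPases, in 4 of 13 genes of MHC class I presentation and in 1 of 23 cell division genes. The gamma-activated site, with the core TTCNNNGAA, was present in 8.35% of all, in 5 of 21 interferon response genes, in 6 of 10 GTPases, in 1 of 13 genes of MHC class I presentation and in 1 of 23 cell division genes. A match is a description of the letters, not a shown site of binding. The 250 bases before the annotated start are printed 5′ to 3′ on the strand of the gene, from RefSeq on GRCm38.p6, with matches to GAAANNGAAA in capitals, and in Bst2 and Irgm1 the 2 matches overlap.
Bst2, chr8:71537473-71537722, minus strand: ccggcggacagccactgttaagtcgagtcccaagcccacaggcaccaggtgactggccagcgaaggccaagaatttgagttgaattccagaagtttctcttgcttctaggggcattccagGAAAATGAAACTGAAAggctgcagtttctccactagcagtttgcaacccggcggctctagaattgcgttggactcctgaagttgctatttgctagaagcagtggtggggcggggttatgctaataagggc
Igtp, chr11:58199306-58199555, plus strand: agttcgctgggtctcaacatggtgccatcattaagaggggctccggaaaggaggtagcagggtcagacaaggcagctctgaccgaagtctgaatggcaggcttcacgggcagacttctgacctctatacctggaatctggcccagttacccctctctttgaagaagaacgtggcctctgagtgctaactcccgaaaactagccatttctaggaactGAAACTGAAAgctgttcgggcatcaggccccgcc
Irgm1, chr11:48871421-48871670, minus strand: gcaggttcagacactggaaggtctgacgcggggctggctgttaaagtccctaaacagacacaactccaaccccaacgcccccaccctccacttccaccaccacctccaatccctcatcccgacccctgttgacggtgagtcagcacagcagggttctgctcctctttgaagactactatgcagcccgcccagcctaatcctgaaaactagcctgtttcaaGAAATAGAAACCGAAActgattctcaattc
The match begins 34 bases before the start of Igtp, and the first of each pair 30 bases before that of Irgm1 and 130 before that of Bst2.

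Genes that load peptides onto MHC class I molecules fell as a group, while those for class II mostly did not pass. All 15 tested members of the class I list fell (median -1.27). Nlrc5, the transactivator of class I genes, stood at 119 and 130 CPM with PBS and at 17.5 and 20.8 CPM with iFTn-MR4 (log2 fold change -2.70, SE 0.12). Tap1, a subunit of the peptide transporter, stood at 219 and 238 CPM against 47.9 and 42.0 CPM, a log2 fold change of -2.35 (SE 0.11). The immunoproteasome subunit Psmb8 and the activator subunit Psme2, which has split counts, fell by 1.96 and 1.43 on the log2 scale. The groups were apart in all 4 genes. Of 11 class II members 3 fell (27.3%) and 8 did not pass (median -0.69). Ciita, the transactivator of class II genes, stood at 17.5 and 19.4 CPM against 11.3 and 8.84 CPM, and fell by 0.88 on the log2 scale (SE 0.18). Ctss, a protease of the class II pathway, fell by 0.98 (SE 0.10). The third, H2-DMa, fell by 0.86, and its call ended without PBS replicate 2 or iFTn-MR4 replicate 2, with log2 fold changes of -0.78 and -0.68.

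Most tested chemokines were lower. Of 15 CC chemokines 9 fell and 1 rose (median -1.99). Ccl2, the main attractant of monocytes, stood at 81.2 and 124 CPM with PBS and at 9.83 and 13.2 CPM with iFTn-MR4 (log2 fold change -3.16, SE 0.25, edgeR adjusted p = 1.72e-05). Its relatives Ccl7 and Ccl12 fell by 3.36 and 3.03 on the log2 scale, and Ccl9 by 1.65. Every PBS library was above every iFTn-MR4 library in all 4. Of 12 CXC chemokines 7 fell (58.3%, against 17.8% of all tested genes) and 2 rose (16.7%, near the 18% of all). The 2 were Cxcl12 and Cxcl14, named after their values were seen. Cxcl9 and Cxcl10, interferon-induced attractants of T cells, went from 83.8 and 97.8 CPM to 7.48 and 9.58 CPM, and from 29.4 and 49.96 CPM to 5.75 and 4.97 CPM. Cxcl3, an attractant of neutrophils, went from 11.6 and 7.27 CPM to 0.227 and 0.223 CPM, a ratio of 42.3 (counting interval 19.2 to 116). Cxcl5, of the same kind, fell by 2.04 (SE 0.35). Cxcl2 stood at 14.2 and 2.97 CPM against 0.756 and 0.371 CPM. Its log2 fold change of -3.92 was -2.39 without PBS replicate 1, -4.64 without PBS replicate 2 and -4.50 and -3.50 without iFTn-MR4 replicates 1 and 2, and the call ended without any of them except PBS replicate 2.

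Cytokines and their sensors followed. Of 16 members of the cytokine and inflammasome list 13 fell and none rose (median -1.62). Il1b, the inflammasome's main product, stood at 22.9 and 18.3 CPM with PBS and at 3.55 and 4.97 CPM with iFTn-MR4 (log2 fold change -2.27, SE 0.37). Il1rn, the natural antagonist of the interleukin 1 receptor, fell too, from 29.6 and 18.0 CPM to 3.33 and 4.23 CPM (log2 fold change -2.66, SE 0.26). The sensor Nlrp3 fell by 1.58, the caspase Casp4 by 1.13 and the macrophage growth factor Csf1 by 0.56 on the log2 scale. Il6, a driver of the acute phase, stood at 2.72 and 8.53 CPM against 0.151 and 0.742 CPM, a ratio of 12.4 (counting interval 6.9 to 24.4). Its log2 fold change of -3.62 was -4.22 without PBS replicate 1, -2.58 without PBS replicate 2 and -5.12 without iFTn-MR4 replicate 2. Without iFTn-MR4 replicate 1 it was -2.89 and the call ended.

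Of 22 genes of Toll-like receptor and NF-kB signalling 14 fell and none rose (median -0.57), and 9 fell without PBS replicate 1 or without either iFTn-MR4 library. The 14 that fell are 63.6% of the list, against 17.8% of all tested genes. The adaptor Myd88 stood at 71.9 and 70.1 CPM with PBS and at 33.4 and 31.4 CPM with iFTn-MR4, a log2 fold change of -1.13 (SE 0.09). The NF-kB cofactor Bcl3 fell by 1.61, and the endosomal RNA sensors Tlr13 and Tlr3 by 0.90 and 0.82 on the log2 scale. Of 16 complement genes 6 rose (37.5%, against 18% of all tested genes) and 4 fell (25%, against 17.8%). Where genes with split counts were left out 3 rose. C3, the central component, stood at 274 and 343 CPM against 984 and 942 CPM and rose by 1.64 (SE 0.11). The activator Cfb and the receptor C5ar1 of myeloid cells fell by 1.39 and 1.17.

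Most markers of neutrophils and of recruited monocytes were lower. Of 14 tested neutrophil markers 11 fell and none rose (median -1.97), with 7 falling without iFTn-MR4 replicate 1. Their summed level was 513 to 565 CPM with PBS, of which Slfn4 was the largest part, and 92.5 to 97.9 CPM with iFTn-MR4. The highest log2 fold change among them was 1.89, which did not pass. Slfn4, with split counts in 1 library, stood at 212 and 254 CPM against 24.9 and 23.7 CPM, and Csf3r, the receptor for granulocyte colony-stimulating factor, at 82.5 and 67.1 CPM against 25.02 and 24.4 CPM. The decoy receptor Il1r2 fell from 12.6 and 11.5 CPM to 0.605 and 1.19 CPM. The groups did not overlap in any of the 3. Mmp9, a gelatinase of neutrophil granules, stood at 79.4 and 32.2 CPM against 7.86 and 6.76 CPM, and its log2 fold change of -2.93 was -2.14 without PBS replicate 1. S100a8, a calcium-binding alarmin, fell by 1.86 (SE 0.45), and its call ended without PBS replicate 1 (-1.76) or iFTn-MR4 replicate 1 (-1.71).

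Of 16 monocyte and macrophage markers 10 fell (62.5%, against 17.8% of all tested genes) and 2 rose (12.5%, against 18%). Their median was -1.01. Their summed level was 3223 to 4701 CPM with PBS and 2033 to 2223 CPM with iFTn-MR4. Spp1, osteopontin of wound macrophages, stood at 876 and 698 CPM against 156 and 239 CPM (log2 fold change -1.99, SE 0.20). Plac8 stood at 112 and 154 CPM against 15.65 and 16.5 CPM, and Fcgr1, the high-affinity receptor for IgG, at 101.4 and 106 CPM against 32.4 and 32.4 CPM. All 3 had their PBS libraries well above. Ly6c2, the antigen of inflammatory monocytes, has split counts, and its log2 fold change of -3.72 was -2.87 without PBS replicate 2. The pan-macrophage marker Adgre1 and Gpnmb, named after their values were seen, were the 2 that rose, by 0.32 and 1.10.

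Of 12 resident macrophage markers 5 rose and 1 fell (median 0.50), but 2 rose without PBS replicate 2 and 3 without either iFTn-MR4 library. The 5 that rose are 41.7% of the list and the 1 that fell 8.33%, against 18% and 17.8% of all tested genes. Gas6, a ligand for receptors that clear dead cells, rose from 167 and 197 CPM to 299 and 291 CPM. Mrc1, the mannose receptor, stood at 118 and 94.6 CPM against 160 and 188 CPM, and its call ended without PBS replicate 2 (0.56) or iFTn-MR4 replicate 2 (0.60). T and NK cell markers had a summed level of 8.85 to 13.3 CPM with PBS and 9.13 to 10.7 CPM with iFTn-MR4 over 11 genes, of which none passed. None of 6 B cell markers passed either, at 8.59 to 8.97 and 5.44 to 6.39 CPM. Haemoglobin and platelet markers, 8 in number, held 1 that fell (12.5%, against 17.8% of all tested genes). Their sum was 640 to 860 CPM with PBS and 1121 and 323 CPM in iFTn-MR4 replicates 1 and 2. The lower chemokine and cytokine genes stand beside these lower neutrophil and monocyte markers, whose part in the result was not tested.

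**Figure D3:**
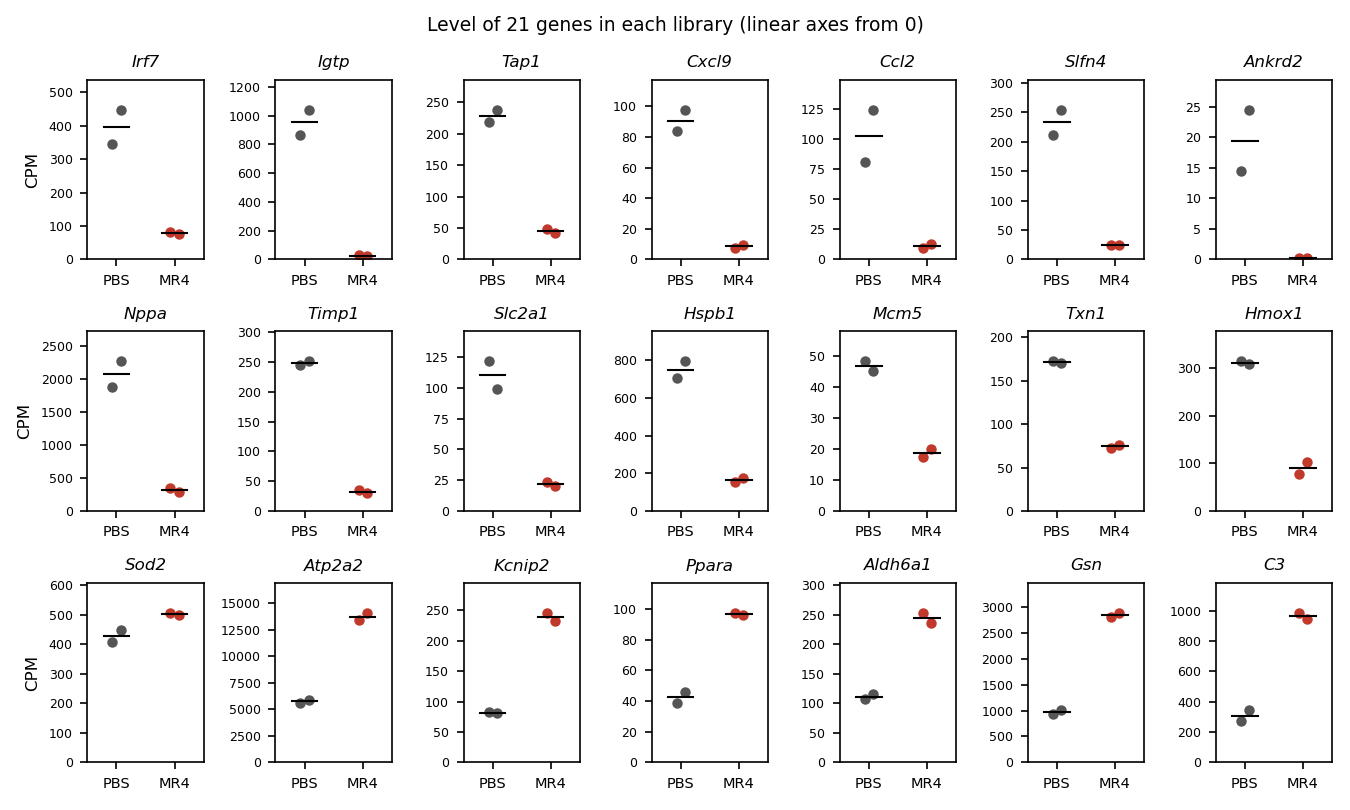
CPM of 21 genes in each of the 2 PBS libraries (grey) and 2 iFTn-MR4 libraries (red), with the group mean as a bar. Each panel has its own linear axis from 0. From Irf7 to Hmox1 all iFTn-MR4 points lie below PBS, and from Sod2 to C3 above it, the gap being small for Sod2, which did not pass the test.

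Genes of the cell cycle were lower. Of 28 members 26 fell and none rose, with a median of -1.12, although 16 fell without PBS replicate 1 or without iFTn-MR4 replicate 2. The replicative helicase subunit Mcm5 stood at 48.2 and 45.2 CPM with PBS and at 17.5 and 19.9 CPM with iFTn-MR4 (log2 fold change -1.32, SE 0.19). Mcm2 stood at 45.2 and 42.6 CPM against 17.1 and 19.9 CPM, and Mcm3 at 59.0 and 48.1 CPM against 22.5 and 24.4 CPM. Tyms, which makes thymidylate and has split counts, fell by 1.49. The iFTn-MR4 libraries were below both PBS libraries in all 4. Of 17 p53 targets 8 fell (47.1%, against 17.8% of all tested genes) and 3 rose (17.6%, against 18%). Cdkn1a, the cell cycle inhibitor p21, stood at 134 and 150 CPM against 42.4 and 38.2 CPM (log2 fold change -1.82, SE 0.18), and the death effector Bax fell by 1.12. Aen, a nuclease, fell by 0.66, while Sesn1, a stress-induced brake on growth signalling, rose from 90.3 and 85.8 CPM to 186 and 195 CPM.

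Genes that cardiomyocytes switch on under stretch were lower. Of 16 natriuretic and wall stress genes 13 fell and 1 rose (median -1.37). Nppa, atrial natriuretic peptide, stood at 1880 and 2270 CPM with PBS and at 351 and 284 CPM with iFTn-MR4, 6.54-fold lower (log2 fold change -2.71, SE 0.13, edgeR adjusted p = 2.14e-06). Nppb, the B-type peptide, stood at 841 and 983 CPM against 191 and 228 CPM (log2 fold change -2.12, SE 0.12). Fhl1, a LIM protein of the stretch-sensing part of titin, stood at 584 and 667 CPM against 139 and 130 CPM. All PBS libraries were above all iFTn-MR4 libraries. The member that rose was Myh7, the beta myosin heavy chain, at 663 and 1542 CPM against 3730 and 4698 CPM. It shares reads with other myosin genes and has split counts, and its log2 fold change of 1.93 (SE 0.33) was 2.67 without PBS replicate 2.

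Chaperones and stress-response genes were lower. Of 20 heat shock proteins 11 fell (55%, against 17.8% of all tested genes) and none rose (median -0.81). With the length offset alone 3 rose. Hspb1, the small heat shock protein of muscle, stood at 709 and 795 CPM with PBS and at 156 and 172 CPM with iFTn-MR4 (log2 fold change -2.19, SE 0.17). Hsp90aa1 fell by 1.22, and the near-identical inducible pair Hspa1a and Hspa1b, with split counts, by 2.27 and 2.25. Of 22 genes of the unfolded protein response 17 fell and none rose in both fits (median -0.73), and 2 rose with the offset alone. Sdf2l1, a chaperone cofactor of the endoplasmic reticulum, stood at 47.2 and 50.3 CPM against 12.3 and 12.5 CPM, and Creld2 at 45.05 and 50.03 CPM against 14.3 and 16.9 CPM. The disulfide isomerases Pdia4 and Pdia6 fell by 1.33 and 1.24 on the log2 scale. All groups were apart in these genes.

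Of 20 genes of the integrated stress response 13 fell and 1 rose (median -0.74). The amino acid transporter subunit Slc7a5 stood at 38.0 and 39.2 CPM with PBS and at 6.88 and 7.72 CPM with iFTn-MR4, and Mthfd2, a mitochondrial folate enzyme, at 24.3 and 25.7 CPM against 4.38 and 5.57 CPM. Asns, asparagine synthetase, and Aars, alanyl-tRNA synthetase, fell by 1.72 and 0.67. Of 20 immediate early factors 10 fell (50%, against 17.8% of all tested genes) and 2 rose (10%, against 18%). Myc stood at 36.9 and 40.0 CPM against 7.41 and 8.46 CPM (log2 fold change -2.28, SE 0.12), and Ier3 and the AP-1 subunit Fosl2 fell by 1.91 and 0.82. Each of the genes named was lower in both iFTn-MR4 libraries than in both PBS libraries.

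Genes for glucose use fell in part, and those for oxygen shortage moved both ways. Of all tested genes 17.8% fell and 18% rose. Of 22 glycolysis and glucose transport genes 11 fell (50%) and 4 rose (median -0.38). The 18.2% that rose is near the share of all tested genes. The glucose transporter Slc2a1 stood at 122 and 99.3 CPM with PBS and at 23.5 and 20.6 CPM with iFTn-MR4 (log2 fold change -2.32, SE 0.12). Slc16a3, the lactate exporter, stood at 131 and 90.9 CPM against 12.9 and 10.7 CPM, and the phosphofructokinase genes Pfkp and Pfkfb3 fell by 1.33 and 1.17. Of 17 hypoxia-inducible genes 5 fell (29.4%) and 4 rose (23.5%), and 2 rose without PBS replicate 2 or iFTn-MR4 replicate 2. The prolyl hydroxylase Egln3 stood at 215 and 168 CPM against 41.3 and 56.4 CPM. The hypoxia factor Epas1 itself was among those that rose, from 270 and 298 CPM to 572 and 606 CPM.

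Several lists of oxidative metabolism had members that rose and none that fell in both fits, with many members not passing. Branched-chain amino acid breakdown had the largest share of members rising of the lists examined, 16 of 19 with none falling (median 0.46, against 18% of all tested genes rising). Aldh6a1, a dehydrogenase of valine breakdown, stood at 107 and 116 CPM with PBS and at 253 and 236 CPM with iFTn-MR4 (log2 fold change 1.14, SE 0.12). Ivd, Acadsb and Mccc1, enzymes of leucine and isoleucine breakdown, rose by 0.79, 0.77 and 0.73 on the log2 scale. The iFTn-MR4 libraries were the higher in all 4. Of 22 genes of the citric acid cycle and pyruvate entry 14 rose and none fell (median 0.34), with 7 rising without PBS replicate 1. On the counts as deposited alone 1 member of this list fell. Ogdh, of the oxoglutarate dehydrogenase complex, stood at 1306 and 1427 CPM against 2330 and 2528 CPM (log2 fold change 0.83, SE 0.10). Idh2, Pdha1 and Suclg2 rose by 0.78, 0.62 and 0.59.

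Of 28 genes of fatty acid uptake and oxidation 16 rose and none fell (median 0.39), and 8, 10 and 9 rose without PBS replicate 1, PBS replicate 2 and iFTn-MR4 replicate 2. Acadm, medium-chain acyl-CoA dehydrogenase, stood at 640 and 672 CPM with PBS and at 1073 and 997 CPM with iFTn-MR4 (log2 fold change 0.66, SE 0.11). Hadha and Hadhb, the subunits of the trifunctional protein, rose by 0.66 and 0.72, and Echs1, the short-chain hydratase, by 0.47 (0.77 with the offset). Of 15 transcription factors and cofactors of this programme 8 rose and none fell. Ppara, the fatty acid receptor, stood at 39.0 and 45.9 CPM against 97.5 and 96.3 CPM (log2 fold change 1.19, SE 0.10). Perm1, a muscle partner of PGC-1, stood at 210 and 228 CPM against 408 and 425 CPM, and Lpin1 and Rxra rose by 1.09 and 0.68. PBS and iFTn-MR4 libraries did not overlap in these genes.

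Counts for the respiratory chain moved with the length offset. The median effective length was 374 bases for complex I, against 2647 for all tested genes, and 9 of 37 complex I genes rose and none fell in both fits (median 0.18), which is 24.3% against 18% of all tested genes. The length offset alone gave 32 (median 0.50), where 24.5% of all tested genes rose in that fit. Of 40 genes of complexes II to V 11 rose (27.5%) and none fell, and the offset alone gave 35. Without PBS replicate 1, 3 and 4 rose. Without iFTn-MR4 replicate 1, 3 and 5 rose, and without either iFTn-R4 library 15 and 18. Sdha, the flavoprotein of complex II, stood at 969 and 1000 CPM with PBS and at 1629 and 1644 CPM with iFTn-MR4 (log2 fold change 0.73, SE 0.09). Ndufs1, the largest complex I subunit, stood at 408 and 443 CPM against 663 and 660 CPM. Ndufv1 and Ndufs6 of complex I rose by 0.45 and 0.51, and Sdhc, Atp5a1 and Atp5c1 of complexes II and V by 0.31, 0.47 and 0.46. With the offset Ndufv1, Ndufs6, Sdhc and Atp5c1 were at 0.74, 0.81, 0.64 and 0.80.

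Contractile and excitation genes rose in part. Of 16 cardiomyocyte markers 10 rose and none fell, and their summed level was 66270 to 69130 CPM with PBS and 94440 to 94820 CPM with iFTn-MR4. That count was 6 without PBS replicate 1, without iFTn-MR4 replicate 1 or without genes with split counts. On the counts as deposited alone 11 cardiomyocyte markers rose and 2 fell. Myh6, which has split counts, stood at 15430 and 14150 CPM against 29030 and 27540 CPM (log2 fold change 0.94, SE 0.13). Ckm, muscle creatine kinase, stood at 1006 and 1100 CPM against 1936 and 1798 CPM, and Mb, myoglobin, rose by 0.59 (0.93 with the offset). Of 20 sarcomere and Z-disc genes 11 rose and none fell, and 4, 5 and 7 rose without PBS replicate 1, iFTn-MR4 replicate 1 and iFTn-MR4 replicate 2. By the counts as deposited alone 12 sarcomere and Z-disc genes rose and 3 fell. Myom2, of the M-band, rose by 1.33, Nebl, nebulette, by 0.94 (0.55 with the offset), and Mybpc3, cardiac myosin-binding protein C, by 0.63. The cardiomyocyte markers thus moved with the metabolic genes above, and their part in that rise was not tested.

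Of the calcium handling genes, 8 of 14 rose and 1 fell, with 5 and 4 rising without PBS replicate 1 and without iFTn-MR4 replicate 2. Atp2a2, the calcium pump of the sarcoplasmic reticulum, stood at 5611 and 5875 CPM with PBS and at 13370 and 14070 CPM with iFTn-MR4 (log2 fold change 1.26, SE 0.12). Its inhibitor Pln, phospholamban, stood at 3205 and 3912 CPM against 6722 and 6923 CPM, and Hrc, a calcium buffer of the same store, at 452 and 479 CPM against 1039 and 1089 CPM. The groups were far apart in these 3. Of 19 cardiac ion channels 10 rose and 1 fell, and 6 rose without PBS replicate 1 or iFTn-MR4 replicate 1. Kcnip2, the accessory subunit of the transient outward potassium channel, stood at 82.8 and 80.8 CPM against 246 and 232 CPM (log2 fold change 1.55, SE 0.09). Kcnj11, pore of the ATP-sensitive potassium channel, rose by 0.96. Of 16 circadian clock genes 7 rose (43.8%, against 18% of all tested genes) and none fell in both fits. Among those that rose were Nr1d1 and Nr1d2, the REV-ERB repressors, by 1.44 and 1.04, Hlf by 1.32 and Cry2 by 0.72. The hour at which tissue was taken is not given in the sources used here.

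Atrial markers set iFTn-MR4 replicate 1 apart. Of 7 tested, 5 rose and 1, Nppa, fell, and 3 rose without that library. Myl4, the atrial essential light chain, had the largest rise of all genes the naming rule admits, and stood at 1.45 and 1.72 CPM with PBS and at 22.5 and 4.31 CPM with iFTn-MR4. Its log2 fold change of 3.07 (SE 0.70) was 1.45 without iFTn-MR4 replicate 1 and 3.83 without iFTn-MR4 replicate 2. Myl7, the atrial regulatory light chain, named after its values were seen, stood at 1.83 and 0.330 CPM against 19.8 and 1.26 CPM, so that its groups overlapped. Dkk3 stood at 10.6 and 10.7 CPM against 36.4 and 17.0 CPM, and its log2 fold change of 1.32 was 0.68 without iFTn-MR4 replicate 1. Sln, sarcolipin of the atria, is listed only in the nanocage table, with 93 counts in iFTn-MR4 replicate 1 and 0 in replicate 2. Stard10 rose by 0.73. The part of atrial tissue in other results of that library was not tested beyond the values without it.

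Most fibroblast markers rose, and collagen I and III did not pass. Of 16 fibroblast markers 10 rose and none fell (median 0.73). Gsn, gelsolin, stood at 939 and 1010 CPM with PBS and at 2804 and 2883 CPM with iFTn-MR4 (log2 fold change 1.55, SE 0.14). Dcn, decorin, stood at 539 and 641 CPM against 1245 and 1278 CPM, Fbln1, fibulin 1, at 83.6 and 97.5 CPM against 257 and 248.8 CPM, and Dpt, dermatopontin, rose by 0.96. The groups were apart in all 4. Col1a1 stood at 2025 and 1883 CPM against 2430 and 1942 CPM and did not pass, at 0.16 as deposited, -0.09 with the length offset and 0.00 without iFTn-MR4 replicate 1. Col3a1 stood at 3545 and 3354 CPM against 5431 and 4430 CPM, with a log2 fold change of 0.51 as deposited (edgeR adjusted p = 0.0269) and 0.29 with the offset (0.156). Postn, periostin of activated fibroblasts, stood at 591 and 569 CPM against 931 and 755 CPM and rose by 0.54 (SE 0.13), a call that ended without iFTn-MR4 replicate 1 (0.39).

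Of 21 collagen chains 5 rose (23.8%, against 18% of all tested genes) and 3 fell (14.3%, against 17.8%), shares near those of all genes, and 2 rose without PBS replicate 1, PBS replicate 2 or iFTn-MR4 replicate 1. The chains that fell numbered 7 with the length offset alone and 5 without either iFTn-R4 library. Col6a6, with split counts in 1 library, rose from 3.60 and 3.04 CPM to 21.5 and 20.9 CPM, and Col14a1, a fibril-associated chain, by 1.24. Col4a1, of basement membrane, stood at 1342 and 1536 CPM against 993 and 971 CPM and fell by 0.55 (-0.85 with the offset), and Col8a1 fell by 0.80. Of 29 matrix enzymes and inhibitors 16 fell and 5 rose, 3 without any 1 of the 4 libraries. The 17.2% of this list that rose is near the 18% of all tested genes, and 55.2% of it fell. Timp1, the protease inhibitor, stood at 245 and 251 CPM against 34.3 and 29.8 CPM (log2 fold change -2.95, SE 0.21). Adamts4 stood at 77.8 and 82.6 CPM against 10.05 and 8.46 CPM, Adamts1 fell by 1.504, and P4ha1, which hydroxylates collagen, by 1.15.

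Of 22 matricellular and profibrotic genes 12 fell and 6 rose, 3 without iFTn-MR4 replicate 1. Ccn2, connective tissue growth factor, stood at 553 and 628 CPM with PBS and at 114 and 104 CPM with iFTn-MR4 (log2 fold change -2.44, SE 0.12). Gdf15, a stress-induced cytokine, stood at 34.2 and 28.8 CPM against 2.57 and 4.23 CPM, and Inhbb, an activin subunit, at 43.4 and 32.5 CPM against 5.97 and 5.42 CPM. In contrast Ogn, osteoglycin, rose from 110 and 124 CPM to 225 and 230 CPM. Of 20 genes of coagulation and leukocyte adhesion 12 fell (60%, against 17.8% of all tested genes) and 4 rose (20%, against 18%). Plau, the urokinase plasminogen activator, and its receptor Plaur fell by 1.70 and 2.71 on the log2 scale.

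Vessel genes rose in part. Of 15 endothelial markers 5 rose (33.3%, against 18% of all tested genes), none fell and 10 did not pass (median 0.225). On the counts as deposited alone 7 rose and 2 fell. Ptprb, a phosphatase of endothelial junctions, stood at 140 and 155 CPM with PBS and at 313 and 318 CPM with iFTn-MR4 (log2 fold change 1.10, SE 0.08, and 0.63 with the length offset). Kdr, the main receptor of vascular endothelial growth factor, rose by 0.81, and the angiopoietin receptor pair Tek and Tie1 by 0.75 and 0.57. Of 14 smooth muscle and pericyte markers 6 rose and 4 fell, 2 without iFTn-MR4 replicate 1. The 6 that rose are 42.9% of the list and the 4 that fell 28.6%, against 18% and 17.8% of all tested genes. Abcc9 and Rgs5 of pericytes rose by 1.49 and 1.17, and Myh11, smooth muscle myosin, by 1.23, while Mcam fell by 1.38. Acta2, smooth muscle actin, stood at 371 and 315 CPM against 124 and 192 CPM and fell by 1.12 (SE 0.27). That call ended without PBS replicate 1 (-0.996), without iFTn-MR4 replicate 1 (-0.83) and with DESeq2 (-1.12). Among 10 nerve, adipocyte and epicardial markers 2 rose (20%, near the 18% of all tested genes). Of 17 retinoid and IGF genes 3 rose (17.6%) and 2 fell (11.8%), shares near those of all genes, 0 rising without PBS replicate 2 and 1 without iFTn-MR4 replicate 1. Aldh1a2, which makes retinoic acid, fell by 1.63.

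None of the superoxide dismutase genes passed in both fits, and most genes for superoxide and peroxide removal did not pass either. Sod1, the cytosolic dismutase, stood at 195 and 208 CPM with PBS and at 193 and 170 CPM with iFTn-MR4, with log2 fold changes of -0.15 (SE 0.09) as deposited and 0.19 with the length offset. Sod2, the mitochondrial form, stood at 409 and 450 CPM against 506 and 500 CPM, a difference of 0.23 (SE 0.09) that missed the threshold in both fits. The groups did not overlap in either gene, with only 195 against 193 CPM between them for Sod1. Sod3, the extracellular form, stood at 83.8 and 104 CPM against 63.7 and 71.0 CPM, with -0.48 as deposited and -0.24 with the offset, and passed the test only in the former. Cat, catalase, stood at 202 and 214 CPM against 217 and 233 CPM, with 0.11 (SE 0.17). Of all 22 genes for superoxide and peroxide removal 7 fell and 1 rose in both fits, and 12 fell on the counts as deposited alone, where the list's median was -0.30 against -0.02 with the offset. The member that rose was the mitochondrial peroxiredoxin Prdx3, named after its values were seen, by 0.33 (SE 0.10), and 0.63 with the offset.

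Txn1, thioredoxin, stood at 172 and 170 CPM with PBS and at 72.9 and 75.6 CPM with iFTn-MR4 (log2 fold change -1.21, SE 0.07, edgeR adjusted p = 4.27e-06). Its reductase Txnrd1 stood at 168 and 169 CPM against 79.9 and 87.3 CPM, and glutathione reductase Gsr and sulfiredoxin Srxn1 fell by 1.14 and 1.05 on the log2 scale. In all 4 the groups were apart. Gpx1, the cytosolic glutathione peroxidase, stood at 311 and 259 CPM against 173 and 180 CPM and fell by 0.69 (-0.35 with the offset), and its call ended without PBS replicate 1 (-0.55), iFTn-MR4 replicate 1 (-0.65) or iFTn-MR4 replicate 2 (-0.71). Of 16 targets of NRF2, the factor that answers oxidants, 9 fell and 1 rose (median -0.65). Hmox1, haem oxygenase 1, stood at 315 and 309 CPM against 77.2 and 102 CPM (log2 fold change -1.80, SE 0.24). The pentose phosphate enzymes Pgd, Taldo1 and Tkt, which regenerate NADPH, fell by 1.15, 0.92 and 0.72 (Taldo1 -0.60 with the offset). Nqo1, a quinone reductase, stood at 37.0 and 38.9 CPM against 45.8 and 44.6 CPM, with 0.25 as deposited and 0.54 with the offset, and passed only in the latter.

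Of 9 subunits of NADPH oxidase, the superoxide source of phagocytes, 5 fell and none rose in both fits (median -0.67). Ncf1 stood at 102 and 70.4 CPM with PBS and at 42.0 and 39.0 CPM with iFTn-MR4 (log2 fold change -1.09, SE 0.19), and Ncf4, Rac2 and Cyba fell by 1.31, 0.88 and 0.78 (Cyba by 0.43 with the offset). Of 14 iron handling genes 4 rose (28.6%, against 18% of all tested genes) and 2 fell (14.3%, near the 17.8% of all). Ferritin heavy chain Fth1 stood at 1646 and 1633 CPM against 1632 and 1649 CPM, with 0.00 as deposited (SE 0.12) and 0.35 with the offset, which alone passed. Ferritin light chain Ftl1, with split counts, stood at 1718 and 1456 CPM against 1011 and 939 CPM and fell by 0.70 (-0.36 with the offset), and its call ended without PBS replicate 1 (-0.58), iFTn-MR4 replicate 1 (-0.75) or iFTn-MR4 replicate 2 (-0.64). The iron exporter Slc40a1, ferroportin, rose by 0.93, transferrin Trf by 0.85 and the metalloreductase Steap4 by 0.71. Trf moved to 1.34 when PBS replicate 1 was left out and to 0.49 when PBS replicate 2 was. Ferroportin stood at 21.1 and 23.3 CPM against 46.6 and 37.6 CPM.

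Counts for ribosomal and proteasome genes, of median effective length 420 and 1023 bases, moved with the length offset. Of 53 cytosolic ribosomal proteins 47 fell on the counts as deposited and 23 in both fits, and the median went from -0.50 to -0.18 with the offset. Without 1 of the 4 libraries 10 to 15 fell, the fewest without iFTn-MR4 replicate 1. Rpl3 stood at 767 and 809 CPM with PBS and at 391 and 397 CPM with iFTn-MR4 (log2 fold change -0.999, SE 0.09, and -0.69 with the offset), and Rps16, Rpl12 and Rps20 fell by 1.02, 0.83 (-0.49 with the offset) and 0.56. Of 31 proteasome subunits 27 fell as deposited and 14 in both fits, with 6 without PBS replicate 2, 7 and 8 without iFTn-MR4 replicates 1 and 2, and 9 by DESeq2. Psmd14, the deubiquitinase of the lid, fell by 0.93, and Psmb3, Psmc4 and Psma5 by 0.80, 0.78 and 0.75, where the offset gave -0.45, -0.48 and -0.42. Of 24 lysosomal genes 6 fell (25%, against 17.8% of all tested genes), 1 rose and 17 did not pass.

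**Figure D4:**
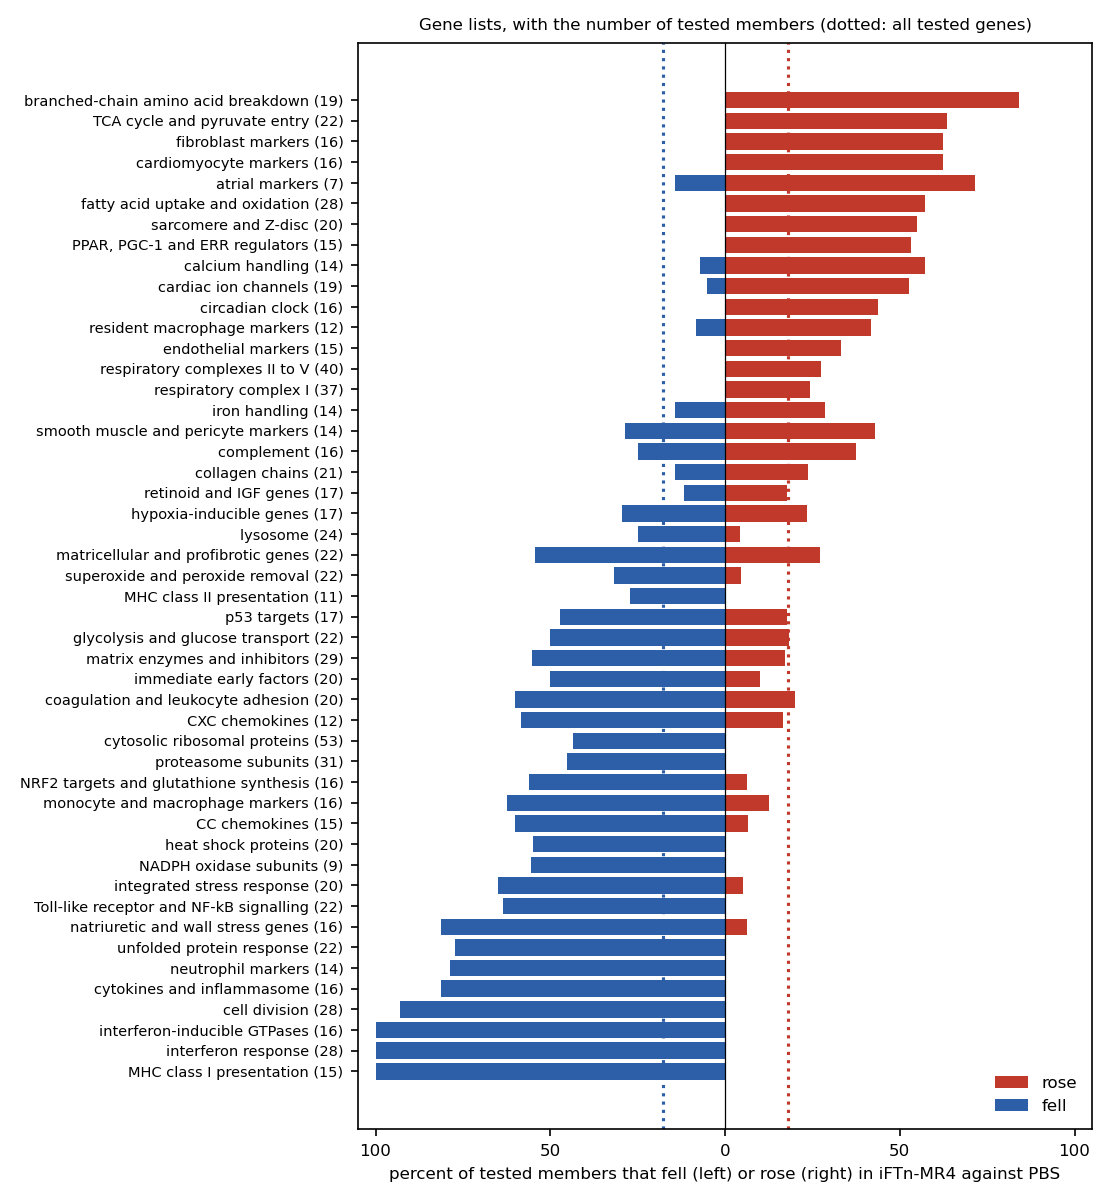
Percent of the tested members of each gene list that rose (red, right) or fell (blue, left) in both fits, for lists with 3 or more members called, with the number tested in brackets. Dotted lines mark the 18% and 17.8% of all tested genes that rose and fell. Interferon response, its GTPases and MHC class I presentation reach 100% on the left, and branched-chain amino acid breakdown 84.2% on the right.

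The nanocage table alone allows a comparison that is free of the table difference, of iFTn-MR4 with the mean of iFTn-M4 and iFTn-R4. It shares the iFTn-MR4 libraries with the comparison against PBS, so the values are set side by side only. By the same rule 1160 genes (8.31%) were higher and 1192 (8.54%) lower in iFTn-MR4. These counts rest on each iFTn-MR4 library, since without replicates 1 and 2 they were 183 and 126 for higher and 193 and 170 for lower genes. Without iFTn-M4 replicate 1 they were 513 and 623, and without iFTn-R4 replicate 2 the higher genes numbered 1778.

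All 28 interferon response genes were lower in iFTn-MR4 than in the other nanocages (median -0.83, where that against PBS was -1.86), as were 15 of 16 GTPases (median -1.04 and -2.74). Igtp differed by -1.82 from the other nanocages and by -5.16 from PBS. The mean over the other nanocages joins unlike levels in these genes. Igtp stood at a mean of 26.6 CPM with iFTn-MR4, 39.1 CPM with iFTn-M4 and 224 CPM with iFTn-R4. Irf7 stood at 80.1, 109 and 339 CPM in the same order. Against PBS, Igtp was at -4.61 with iFTn-M4 and at -2.09 with iFTn-R4. Of the class I list 10 of 15 were lower (median -0.39 and -1.27), and of the class II list none passed in either direction (median 0.32 and -0.69). All 28 cell division genes were lower (median -1.07 and -1.12). Here too the mean joins unlike levels. Against PBS, Mcm2, Mcm3, Mcm5 and Tyms were at -0.70 to -0.78 with iFTn-M4 and at -0.08 to -0.14 with iFTn-R4. Of the 22 matricellular genes 13 were lower (median -0.46 and -0.81), with Ccn2 at -1.22 and -2.44.

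Other lists are given in the same way, beside the 8.31% of all tested genes that were higher and the 8.54% that were lower. Of 16 wall stress genes 5 were lower (median -0.24 and -1.37), with Nppa at -1.65 and -2.71, Nppb at -0.33 and -2.12 and Nmrk2 at -0.30 and -4.02, the last pair not passing within the nanocages. Of 20 heat shock proteins 4 were lower and 2 higher, the latter near the share of all tested genes (median -0.09 and -0.81). The unfolded protein response had 6 lower and none higher of 22 (median -0.22 and -0.73). Of the 22 citric acid cycle genes 19 were higher (median 0.32 and 0.34), of 19 branched-chain genes 14 (median 0.37 and 0.46) and of 28 fatty acid genes 6 (median 0.25 and 0.39). Of the 37 complex I genes 15 were higher and of the 40 of complexes II to V 13. Atp2a2 stood 0.58 above the other nanocages and 1.26 above PBS. Of 16 fibroblast markers 3 were higher and 1 lower (median 0.14 and 0.73), the 1 lower being near the share of all tested genes. C3 was at 0.09 and 1.64. Sod2 passed within the nanocage table, at 0.41 (SE 0.08), and not against PBS. Its mean was 503 CPM with iFTn-MR4, 421 CPM with iFTn-M4, 343 CPM with iFTn-R4 and 429 CPM with PBS. Whether the differences from PBS and from the other nanocages differ was not tested.

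**Figure D5:**
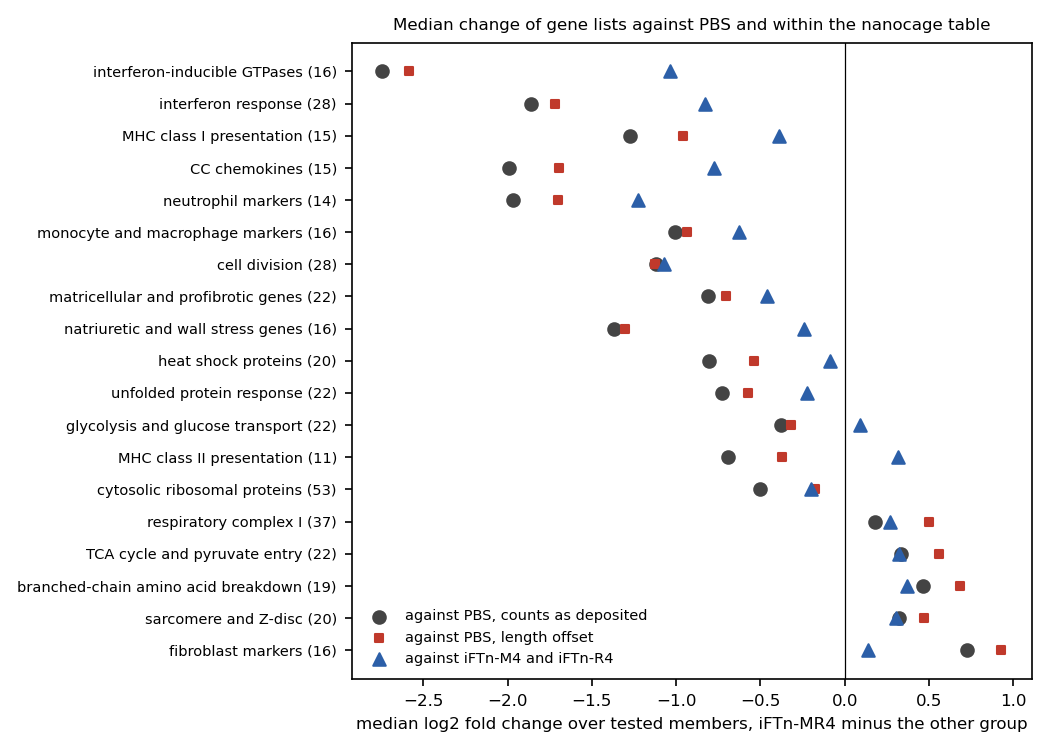
Median log2 fold change over the tested members of 19 gene lists, for iFTn-MR4 against PBS on the counts as deposited (circles) and with the length offset (squares), and against the mean of iFTn-M4 and iFTn-R4 (triangles). The number of tested members is in brackets, and all 3 comparisons share the iFTn-MR4 libraries. For cell division the 3 symbols nearly coincide, at -1.07 to -1.13, and for the GTPases they lie at -2.74, -2.59 and -1.04.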

How the data were processed

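Poly(A) RNA of IR heart tissue was sequenced on DNA nanoballs, as the labels' protocols state. HISAT2 2.1.0, Bowtie2 2.2.5 and RSEM 1.2.8 were run on GRCm38.p6, per the submitters' processing notes. Deposited values are the authors' expected counts, in which 5.09% of values were not whole (tolerance 1e-09) where reads were split between similar copies (1269 genes). The authors also deposited FPKM, used here only for effective lengths, and TPM, used in 1 alternative. Strandedness is not given in the sources used here, and reads of an antisense partner may be included. The table of PBS lists 17051 genes and that of the nanocages lists 17788, with 16695 in both and 148 of these without a PBS value. None of the genes outside the join reached 5 CPM in both libraries of its group. RefSeq of GRCm38.p6 matched 16505 of 16547 IDs.

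Expected counts were rounded and fitted with edgeR 4.0.16 in R 4.3.3 (filterByExpr, TMM, quasi-likelihood F test, 4 residual degrees of freedom), with all 8 libraries in 1 fit and a mean per group. The second fit added a natural spline (4 degrees of freedom) on log2 effective length for each library as an offset, estimated where the mean count was 50 or more. P-values are 2-sided and Benjamini-Hochberg adjusted over all 13953 tested genes. SE is the log2 fold change over the square root of F. Counting intervals are exact at 95% and cover counting error only. A gene with no count lies below 0.19 to 0.227 CPM at a floor of 3 counts per library.

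The comparison, the 52 gene lists and the rules were chosen with earlier results of these data known. Named genes are the 12 largest rises and falls called in both fits (at least 5 CPM, groups apart, no split counts, no predicted names), from each list with 3 or more calls the 4 of lowest adjusted p, and a fixed panel of 24 genes. From the list members the text leaves out some whose call ended without 1 library. Some further members are not reported here. Alternatives were DESeq2 1.42.0, limma 3.58.1 on log2(TPM + 1), other scalings, filters and splines, a replicate block and leaving out libraries.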

Additional observations from a re-analysis of the deposited data

Results flagged for a closer look

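Klk1b26 and Luzp2 have no value in the PBS table and were in none of the comparisons, but have counts in both iFTn-MR4 libraries above the floor of 3 counts. Klk1b26, of the kallikrein family, had 4 counts in iFTn-MR4 replicate 1 and 4 in replicate 2. Luzp2 had 7 and 5 counts. Both are low, and no level with PBS can be set beside them.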

How the results depend on the processing

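Of 4144 values of the 219 named genes under the alternatives, 4084 kept direction and side of the threshold, and 36 values, of 17 genes, lost the call. Apart from the fixed panel, the named genes were chosen because they were called in both fits, so these counts do not describe all calls. Each fit taken alone is among the alternatives, and there a gene called in both fits could not lose its call. Of all 4991 calls DESeq2 kept 3865 and limma on log2(TPM + 1), a single fit without the length offset, kept 4496. Fewer than with DESeq2 were kept where a PBS or iFTn-MR4 library was left out. The cause of the changes was not tested. Genes that rose and fell numbered 4336 and 2575 with limma on log2(TPM + 1), which moved the median of all genes to 0.108. These calls did not have to pass with the length offset. The like numbers from the counts as deposited alone were 3430 and 3666. Without 1 library, genes that rose ranged from 1519 to 2797 and genes that fell from 1588 to 2741. DESeq2, with both fits required, gave 1912 and 1993. Against the other nanocages, higher genes numbered 749 with library size alone, 597 on log2(TPM + 1) and 126 to 1778 without 1 library, and lower genes 1804 on log2(TPM + 1) and 170 to 1643 without 1 library. A group left with 1 library is assumed to vary like the others. The length correlation was 0.323 to 0.354 without 1 library and -0.017 with the offset. Directions turned in genes near 0. With the offset Sod1 was at 0.194 and Col1a1 at -0.088, and without 1 library Col1a1 was at 0.00 to 0.321, the lowest without iFTn-MR4 replicate 1. Fth1 was at -0.030 with library size alone, -0.005 with the 4 PBS and iFTn-MR4 libraries alone, and -0.010 to 0.018 without 1 library. With the replicate number as a block, 2618 rose and 2592 fell. Deviations of PBS and iFTn-MR4 libraries of the same number correlated by 0.107, but the labels name no shared animal or day, so the numbers are not taken as pairs. Leaving out iFTn-M4 or iFTn-R4 libraries was chosen after seeing the data. No value against the other nanocages exists for the 4-library fit. Genes under about 5 CPM rest on few counts, and their fold changes are imprecise.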
